A study of Homo sapiens with 6 samples.

Results

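Gene expression after 6 h of T cell receptor stimulation was compared with that after 1 h or 3 h in Jurkat, a line of human leukaemic T cells, after transfection of siRNA against p65 or RPS3. The comparison set the 2 arrays labelled 6 h, 1 with p65 siRNA and 1 with RPS3 siRNA, against the 4 arrays labelled 1 h or 3 h, 2 with each siRNA, which together are all 6 arrays of the series. On each 2-colour spotted array the Cy5 channel held RNA of cells given p65 siRNA or RPS3 siRNA, and the Cy3 channel held RNA of cells given a nonspecific control siRNA and stimulated for the same time. All cells, controls included, had been stimulated with anti-CD3/CD28 at 1 ug, so no array held unstimulated cells. The study asked what loss of p65 and loss of RPS3 do to transcription in stimulated T cells, and the late arrays bear on which of these differences from control appear between 3 h and 6 h.

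Anti-CD3/CD28 antibodies engage the T cell receptor and the costimulatory receptor CD28 and start kinase cascades that release NF-kB into the nucleus. NF-kB is a dimer in which p65, the product of RELA, is a transactivating subunit. RPS3 is a protein of the small ribosomal subunit that also binds p65 and takes part in NF-kB complexes at a subset of target promoters. In a stimulated T cell, immediate-early genes and NF-kB inhibitors are induced first, cytokines and their receptors follow, and genes of ribosome production, glycolysis and cell division follow later still.

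A value here is the log ratio of an array's channels for a probe, read as log2 and set so that the median of the array is 0; no source used here states the log base. A positive value means more RNA in the siRNA cells than in the control cells, a direction that is likely but was not settled by the labels. The change at 6 h is the value at 6 h minus the mean of 1 h and 3 h, averaged over both siRNAs and tested with limma with siRNA as a covariate, and "passed" means a Benjamini-Hochberg adjusted p under 0.05. Genes with several probes were averaged, and probes without a gene name were tested singly. With 1 array for each siRNA and time, and no statement that arrays came from separate cultures, p-values measure the spread between these arrays, which may be technical. The labels do not say whether the 6 h arrays of both siRNAs carried 1 control RNA. A change of the control RNA at 6 h and a change of the siRNA cells at 6 h therefore cannot be told apart for any gene below.

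The arrays labelled 6 h also differed from the others in technical measures. Values were given for 12946 to 14423 probes per array, and 14.8% and 15.1% of probes were blank at 6 h against 5.4% to 10.1% on the earlier arrays. Of the probes, 1457 were blank on both 6 h arrays, and 370 of these were blank on no earlier array; their part in the results was not tested. The profiles at 6 h correlated with each other at r = 0.686 across the 7267 features, while a 6 h array and an earlier array correlated at -0.257 to 0.0831, a description across genes that are not independent. The experiment ID numbers fall into 2 separate runs, and the earlier arrays correlated most within a run (0.48 for p65 siRNA at 3 h and RPS3 siRNA at 1 h, and 0.44 for p65 siRNA at 1 h and RPS3 siRNA at 3 h), and both 6 h arrays had numbers in the run of the former pair, called a series of ID numbers below.

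The genes targeted by the siRNAs were examined first. RPS3, read by 1 probe, had log2 ratios at 1, 3 and 6 h of 0.11, 0.01 and 1.11 with p65 siRNA and -2.50, -2.53 and -1.44 with RPS3 siRNA. RPS3 was thus lower than control on all 3 RPS3 siRNA arrays, least so at 6 h, and on no p65 siRNA array. The change at 6 h was 1.07 (SE 0.12, limma adjusted p = 0.00538), and it was as large with p65 siRNA (1.06) as with RPS3 siRNA (1.07). A probe 2 numbers away, for RGS4, showed the same order, with a change of 0.92 and values of -1.13, -1.09 and -0.34 with RPS3 siRNA. The probe 2 numbers away on the other side, for CDK8, did not (0.93, 0.305 and 0.425 with RPS3 siRNA, change -0.05). The probe between CDK8 and RPS3, for SEPTIN2, changed by 0.73, with -0.41, -0.12 and 0.38 with RPS3 siRNA. RELA, which encodes p65, had values of -0.41, -0.46 and -0.59 with p65 siRNA and -0.39, -0.69 and -0.54 with RPS3 siRNA. These means hide 2 probes that disagreed, of which 1 read -0.71 to -1.28 on all 6 arrays and the other -0.40 to 0.50, above control with p65 siRNA at 3 h and RPS3 siRNA at 1 h. RELA did not pass (change -0.08, adjusted p = 0.758), and the sign of this change turned when arrays were scaled to 1 spread or when 6 h was set against 3 h alone.

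Of 7267 features tested, 606 were higher at 6 h than earlier and 140 were lower, so that 10.3% of all features passed, 8.34% upward and 1.93% downward. Those higher comprised 357 named genes and 249 unnamed probes, and those lower comprised 73 and 67. The rises had a median of 0.86 and reached 2.84, with 196 over 1, whereas the falls had a median of -0.60 and reached -0.97. Every one of the 746 features moved the same way with both siRNAs. This largely follows from choosing them by the mean change over both siRNAs, and nothing is read from it. Over the 606 higher features the array medians were -0.20, -0.27 and 0.56 at 1, 3 and 6 h with p65 siRNA, and -0.23, -0.13 and 0.73 with RPS3 siRNA. Over the 140 lower features they were 0.25, 0.20 and -0.34 with p65 siRNA, and 0.07, 0.11 and -0.56 with RPS3 siRNA. The 1 h and 3 h medians thus lay close together and the 6 h medians on the other side of 0. The choice of the features favours both these medians and the crossings that follow, so they are descriptions only. The mean crossed the control level for 511 of the higher and 124 of the lower features, and 328 and 61 of them had all 4 earlier arrays on 1 side of it and both 6 h arrays on the other. Both 6 h arrays lay above all 4 earlier arrays for 22.4% of all features and below them for 19.1%; among the called features, which the same contrast chose, these were 596 of the 606 and 133 of the 140, and nothing is read from that. No feature passed for the difference between 3 h and 1 h by limma (123 features, 1.69%, at an unadjusted p under 0.05), and against 1 earlier time alone 55 features rose from 3 h (0.757%) and 75 from 1 h (1.03%), with none lower.

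The counts rested on the presence of both 6 h arrays. Without the p65 siRNA array at 6 h 15 features passed, and without the RPS3 siRNA array at 6 h 12 did. Leaving out the RPS3 siRNA array at 3 h left 333 higher and 12 lower, and leaving out the RPS3 siRNA array at 1 h left 372 and 19. Within the series of ID numbers that holds both 6 h arrays, 567 features were higher and 174 lower, and 472 of the 746 were among them. With the series as a covariate 980 were higher and 507 lower, so that 65.9% of calls were higher against 81.2% without it, and 720 of the 746 were among them. Of the 113 genes named below that passed, 7 also passed without the p65 siRNA array at 6 h (SRSF4, OXSR1, KDELR1, MATR3, ZNF257, NOC3L and TUFM) and 2 without the RPS3 siRNA array at 6 h (SRSF4 and KDELR1), all with unchanged direction.

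**Figure D1:**
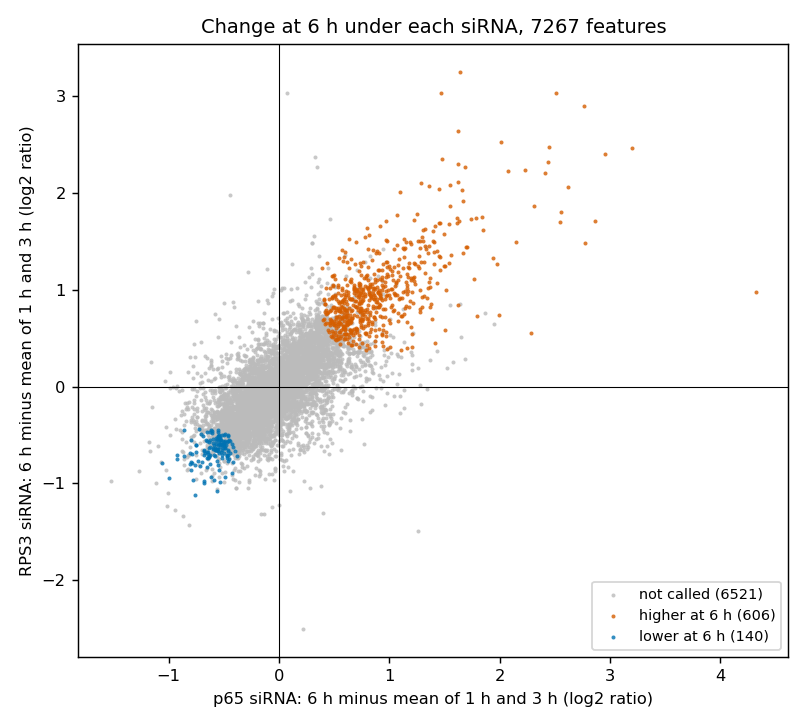
Change at 6 h (6 h minus the mean of 1 h and 3 h, log2 ratio of siRNA over control) with p65 siRNA on the x axis and with RPS3 siRNA on the y axis, 1 point per feature. The 606 features called higher (orange) all lie in the upper right and the 140 called lower (blue) all lie in the lower left, and the rises extend further from 0 than the falls. The calls were chosen by the mean of both changes, which favours these positions.

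The largest rise among named genes was that of SRSF4, a serine and arginine rich splicing factor. Its log2 ratios at 1, 3 and 6 h were -0.54, -0.81 and 2.53 with p65 siRNA and -0.37, -0.59 and 1.99 with RPS3 siRNA, a change of 2.84 (SE 0.20, limma adjusted p = 0.00221). KDELR1, the receptor that returns escaped chaperones from the Golgi to the endoplasmic reticulum, had values of -0.80, -0.77 and 1.65 with p65 siRNA and -0.99, -0.59 and 1.53 with RPS3 siRNA. Its change was 2.38 (SE 0.15, adjusted p = 0.00163). Both genes were below control on all 4 earlier arrays and above it on both 6 h arrays. OXSR1, a kinase that responds to osmotic stress, rose by 2.45, with values of -0.19, -0.66 and 1.22 with p65 siRNA and -0.35, -0.09 and 3.03 with RPS3 siRNA. Its probe valued on all 6 arrays read 3.17 rather than 1.22 at 6 h with p65 siRNA, since the mean also takes in a second probe there. MATR3, an RNA-binding protein of the nuclear matrix, rose by 2.27, with values of -0.45, -0.73 and 1.42 with p65 siRNA and -0.80, -0.24 and 2.002 with RPS3 siRNA.

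The next ranks held genes of varied function. MARCHF6, a ubiquitin ligase of the endoplasmic reticulum membrane, rose by 2.15, with values of -1.08, -1.27 and 0.91 with p65 siRNA and -1.19, -0.57 and 1.34 with RPS3 siRNA. RPP30, a subunit of RNase P that matures transfer RNA, rose by 2.12, and NOC3L, a nucleolar protein of large ribosomal subunit assembly, by 1.96. TUFM, the mitochondrial elongation factor, had values of -0.54, -0.37 and 1.17 with p65 siRNA and 0.04, 0.03 and 2.15 with RPS3 siRNA, a change of 1.87 (SE 0.16). RUVBL1, an ATPase of chromatin remodelling complexes (change 1.74), had earlier values of -0.22 to 0.22, and TUFM was near control there with RPS3 siRNA but below it with p65 siRNA. The zinc finger genes ZNF257 (2.25), ZNF292 (1.98) and RBAK (1.73), the helicase gene ZGRF1 (1.75) and PDE4DIP (1.71), which anchors a phosphodiesterase, complete the set. CCR4, a chemokine receptor of helper T cells, had values of -0.88, -1.64 and 0.41 with p65 siRNA and -1.15, -0.38 and 1.15 with RPS3 siRNA and rose by 1.79. Its probe valued on all 6 arrays read 0.54 rather than 1.15 at 6 h with RPS3 siRNA and rose by 1.42. In all 15 genes both 6 h arrays lay above all 4 earlier ones, the adjusted p-values ran from 0.00163 to 0.0143, and all 15 passed when any 1 earlier array was left out.

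The largest falls were smaller than any of these rises and started from values above control in most arrays. DHRS9, a retinol dehydrogenase, had values of 0.17, 0.84 and -0.55 with p65 siRNA and 0.39, 0.15 and -0.51 with RPS3 siRNA and fell by 0.92 (SE 0.21, limma adjusted p = 0.0372). TPMT, which methylates thiopurine drugs, had values of 0.08, -0.07 and -0.79 with p65 siRNA and 0.53, 0.28 and -0.37 with RPS3 siRNA and fell by 0.79, with an adjusted p of 0.017. S1PR1, the sphingosine-1-phosphate receptor through which lymphocytes leave lymphoid organs, had values of -0.03, 0.26 and -0.64 with p65 siRNA and -0.41, -0.21 and -0.99 with RPS3 siRNA. Both 6 h arrays were below all earlier arrays for each of these 3 genes, and S1PR1 fell by 0.72. GPR183, an oxysterol receptor that guides lymphocyte positioning, was read by 4 probes and fell by 0.68, with values of 0.04, -0.26 and -0.66 with p65 siRNA and -0.15, -0.43 and -1.09 with RPS3 siRNA. The adaptor NCK2, which links receptor kinases to actin, fell by 0.77, and the small GTPase RAP1A, which acts in integrin adhesion, by 0.67.

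The remaining falls among the 15 were those of UGT2B7 (a glucuronosyltransferase, -0.84), HESX1 (a homeobox repressor, -0.71), COXFA4 (a respiratory complex protein, -0.71), RFX1 (a DNA-binding regulator, -0.70), RPS20 (-0.69), RPS29 (-0.69), CCDC71L (-0.68), MET (a growth factor receptor, -0.68) and RPL22L1 (a paralogue of a ribosomal protein, -0.67). Both 6 h arrays lay below all 4 earlier ones in all 15. Their adjusted p-values ran from 0.017 to 0.0486, and no gene of this group passed when either 6 h array was removed. NCK2 and TPMT were the 2 that passed without the RPS3 siRNA array at 3 h, 5 passed without that at 1 h, and 8 passed within the 1 series of ID numbers.

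**Figure D2:**
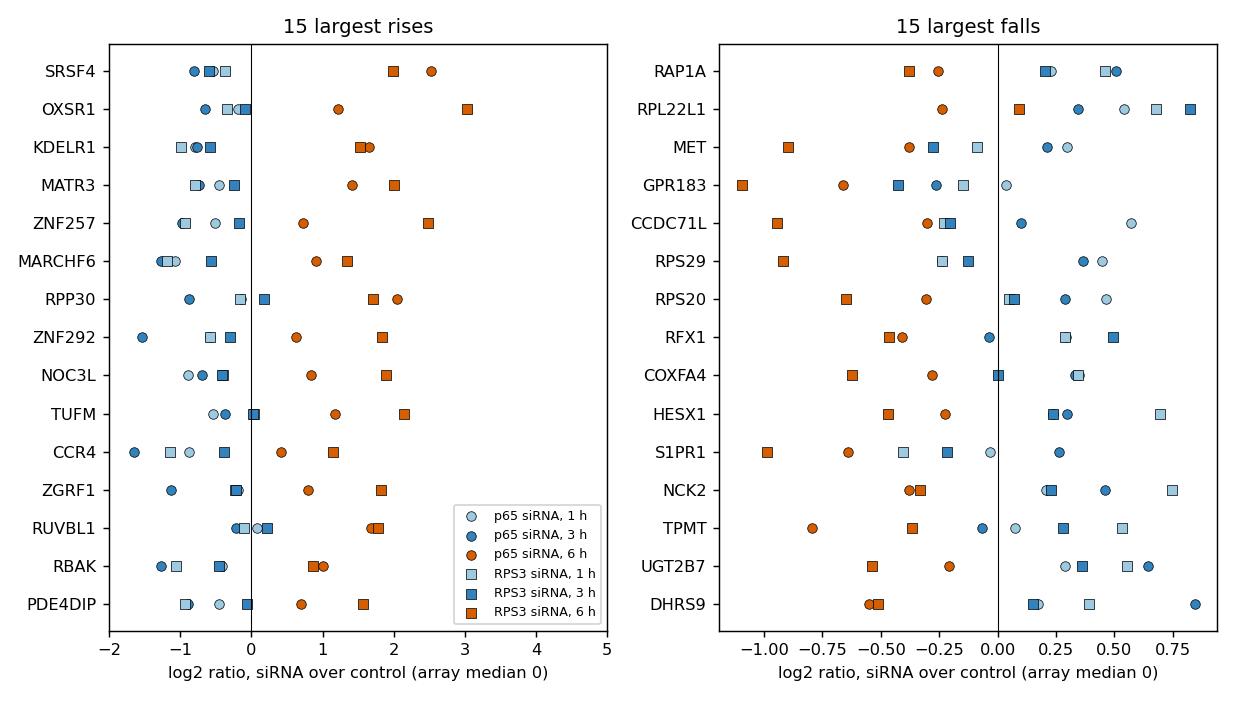
Log2 ratio of siRNA over control (x axis, array median 0) of the 15 named genes with the largest rises (left) and the 15 with the largest falls (right), 1 point per array, with circles for p65 siRNA, squares for RPS3 siRNA and orange for 6 h. In every row both orange points lie beyond all 4 blue points, and the x axes of the panels differ in range.

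Several genes of the T cell receptor complex and its signalling rose. Of 56 tested, 12 rose and none fell, against 8.34% higher and 1.93% lower among all features, and the median change was 0.16 against -0.02 for all features. AKT1, a survival kinase downstream of CD28, rose by 1.30 (SE 0.12, limma adjusted p = 0.0038). It had values of -0.44, -0.30 and 0.94 with p65 siRNA and -0.25, -0.20 and 1.06 with RPS3 siRNA. Both of its probes rose (1.26 and 1.33). SLA, an adaptor that lowers receptor levels, rose by 0.94, and SIT1, an inhibitory transmembrane adaptor, by 0.79. The receptor chains CD247 and CD3E, which carry the signalling motifs, rose by 0.80 and 0.65. LCK, the kinase that phosphorylates those motifs, had values of 0.18, 0.15 and 0.72 with p65 siRNA and -0.21, -0.04 and 0.74 with RPS3 siRNA, and all 5 of its probes were higher at 6 h (0.45 to 1.23). ZAP70, the kinase that docks on them, had values of -0.41, -0.35 and 0.36 with p65 siRNA and -0.04, 0.28 and 0.93 with RPS3 siRNA. The 6 h arrays lay above all earlier arrays for each of these genes.

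The costimulatory receptor CD28, a target of the stimulating antibody, rose by 0.79, with 3 probes at 0.11, 0.75 and 1.52. CD5, a negative regulator, rose by 0.69 as a mean of 4 probes, of which the 2 valued on all arrays changed by 0.07 and 0.30. PDK1, a kinase of pyruvate dehydrogenase (1.16), RASA2, a brake on RAS (0.65), and the transcription factor NFATC3 (0.56) complete the 12. PDK1 by this symbol is not a receptor signalling kinase and also stands in the glycolysis list; without it 11 of 55 rose, with a median of 0.16. Of 12 T cell identity markers 6 rose (50%, against 8.34% of all features), with a median of 0.56. All 6 also stand in the list above (CD247, CD28, CD3E, CD5, LCK and ZAP70). The receptor chain CD3D changed by -0.20 and did not pass. Of 12 markers of other lineages none passed, against 10.3% of all features, their median was -0.10 and they ranged from -0.68 to 0.21. The table holds ratios only, so no marker's level could be read. In bulk RNA, fewer cells of a kind and less RNA per cell cannot be told apart. Without the RPS3 siRNA array at 3 h, or without that at 1 h, 6 receptor signalling genes passed, and 2 or 1 of the identity markers did. Under quantile normalization 6 and 3 passed.

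Downstream of the receptor, the MAP kinase list had 4 of 39 genes higher (10.3%, near the 8.34% of all features) and none lower, with a median of 0.04. SPRED2, an inhibitor of RAS signalling, had values of -0.51, -0.97 and 0.72 with p65 siRNA and -0.65, -0.51 and 0.63 with RPS3 siRNA and rose by 1.33 (SE 0.17, limma adjusted p = 0.00695). MAP3K3 (0.70), HRAS (0.65) and MAPKAPK2 (0.56) also rose, although 1 of the 4 probes of MAPKAPK2 went the other way (-0.45). Of 36 cytokines, receptors and activation markers, 2 rose (5.56%, against 8.34% of all features) and none fell (median -0.03). SOCS3, a feedback inhibitor of cytokine receptors, had values of 0.02, 0.13 and 1.51 with p65 siRNA and 0.01, -0.06 and 1.04 with RPS3 siRNA, a change of 1.25 (adjusted p = 0.00503). IL2RG, the common chain of several interleukin receptors, rose by 0.90, but its 3 complete probes disagreed, with 2 near 0 and 1 at 1.60. SOCS3 was near the control level on all 4 earlier arrays and above it on both 6 h arrays. The MAP kinase median turned negative under quantile normalization (-0.04), where 1 of its genes passed.

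NF-kB genes showed little that passed. None of 15 members of the NF-kB and IkB families passed, against 10.3% of all features, a share at which few of 15 would pass. Their median was 0.23, with 10 of 15 above 0. With the series of ID numbers as a covariate 3 of them were higher, with arrays scaled to 1 spread 2, and within the 1 series or by the median of a gene's probes 1. NFKB1, the precursor of the p50 subunit, had values of -0.65, -1.11 and 0.11 with p65 siRNA and -0.37, -0.35 and 0.04 with RPS3 siRNA. It lay above all earlier arrays at 6 h with both siRNAs, with a change of 0.69 (SE 0.19, limma adjusted p = 0.0616), but its 3 probes ran from 0.05 to 1.78. TNFAIP3, the A20 feedback inhibitor, had values of -1.19, -1.34 and -0.59 with p65 siRNA and -0.99, -0.54 and -0.38 with RPS3 siRNA, with 6 probes between 0.09 and 1.45. It was below control on all 6 arrays, including those at 6 h, and did not pass (change 0.53, adjusted p = 0.0862). Of 67 NF-kB target genes 1 was higher (1.49%, against 8.34% of all features) and none lower (against 1.93%), and the median was -0.06. The gene that passed was CCND3, a cyclin of the G1 phase (values -0.24, -0.09 and 0.42 with p65 siRNA and -0.44, -0.60 and 0.16 with RPS3 siRNA, change 0.64). BCL2A1, a survival gene induced by NF-kB, changed by -0.54 (adjusted p = 0.0623), with 6 h values of -0.54 and -0.67 below all earlier ones.

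Immediate-early genes, which need no new protein for their induction, gave no call among 42, against 10.3% of all features. Their median was -0.16, 29 of 42 were below 0, and for 11 of them both 6 h arrays lay below all 4 earlier ones, against 19.1% of all features. RGS2, a regulator of G protein signalling, changed by -0.51, with values of 0.11, 0.32 and -0.34 with p65 siRNA and 0.21, -0.02 and -0.36 with RPS3 siRNA. ID1, which holds basic helix-loop-helix factors off DNA, changed by -0.47, with values of 0.19, 0.25 and -0.28 with p65 siRNA and -0.64, -0.51 and -1.02 with RPS3 siRNA. Neither passed (adjusted p = 0.0614 and 0.0554). With the series of ID numbers as a covariate, 6 immediate-early genes were lower and 1 higher, and 8 NF-kB target genes were lower and 3 higher.

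Of 31 genes of glycolysis and hypoxia 6 rose (19.4%, against 8.34% of all features) and none fell, with a median of 0.18 and 13 of 31 below 0. ENO1, the enolase of glycolysis, had values of -0.17, -0.06 and 1.498 with p65 siRNA and -0.27, -0.20 and 1.46 with RPS3 siRNA, a rise of 1.65 (SE 0.12, limma adjusted p = 0.00308), and its 4 probes rose by 0.43 to 2.35. ALDOA, the aldolase, had values of 0.12, 0.10 and 1.10 with p65 siRNA and -0.04, -0.01 and 1.12 with RPS3 siRNA and rose by 1.07. GAPDH, the dehydrogenase of the pathway, had values of 0.26, -0.05 and 1.00 with p65 siRNA and -0.10, 0.15 and 1.05 with RPS3 siRNA and rose by 0.96. All 3 were close to control at 1 h and 3 h and stood about 1 or more above it at 6 h with both siRNAs. PGK1 (0.57), PDK1 (1.16) and ADM, a hypoxia-induced peptide hormone (0.65), also passed, neither PDK1 nor ADM being a glycolytic enzyme. Under quantile normalization 3 genes of the list passed.

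Genes commonly used as references for normalisation shifted too. Of 12, 5 rose (8.34% of all features did) and none fell (median 0.39): ACTB, ACTG1, GAPDH, PGK1 and SDHA, of which GAPDH and PGK1 also stand in the glycolysis list. ACTB, beta-actin, had mean values of 0.05, -0.06 and 0.92 with p65 siRNA and -0.09, -0.02 and 0.86 with RPS3 siRNA over 11 probes, a change of 0.92 (SE 0.12, limma adjusted p = 0.00812). Its 9 probes valued on all arrays ran from -0.50 to 2.52, with 2 of them lower at 6 h. ACTG1, gamma-actin, rose by 0.80, with values of 0.11, -0.01 and 0.78 with p65 siRNA and -0.21, -0.31 and 0.61 with RPS3 siRNA. The reference median stayed between 0.33 and 0.41 when the arrays were left uncentred, quantile normalised or scaled to 1 spread, while the 5 genes passing became 2 under quantile normalization and 3 under scaling.

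**Figure D3:**
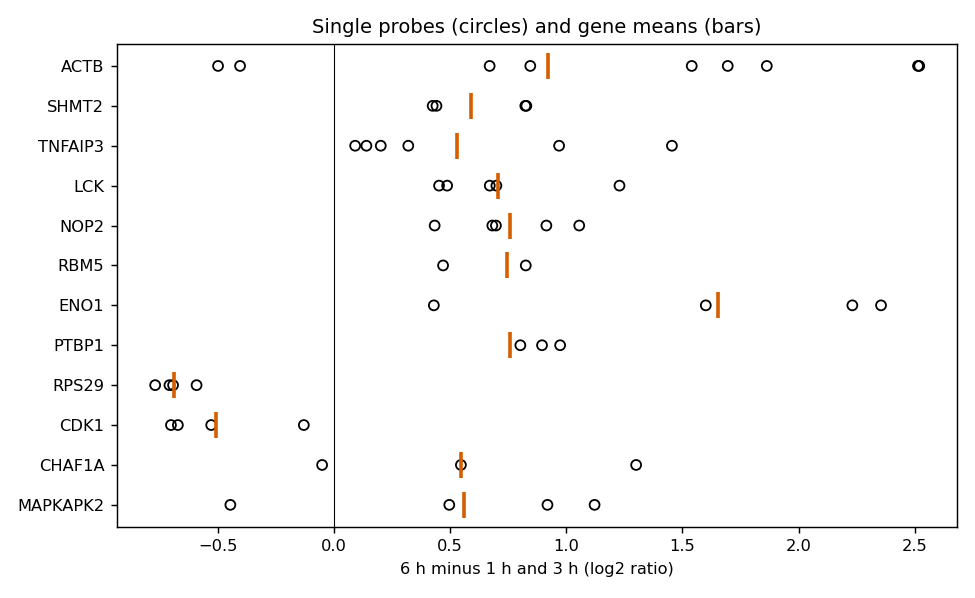
Change at 6 h (x axis, log2 ratio) of single probes valued on all 6 arrays (circles) and of the gene mean over every probe with a value (orange bars) for 12 genes read by several probes. The probes of RPS29, LCK and NOP2 lie on 1 side of 0, while ACTB spans -0.50 to 2.52 and MAPKAPK2 spans -0.45 to 1.12.

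In a list of genes that respond to unfolded proteins or amino acid shortage, 5 of 31 rose (16.1%, against 8.34% of all features) and none fell, with a median of 0.08 and 11 of 31 below 0. KDELR1 and the chaperones HSP90B1 and CALR were among the 5. HSP90B1, the endoplasmic reticulum form of HSP90, had values of -0.01, -1.08 and 0.95 with p65 siRNA and -1.34, -0.67 and 0.58 with RPS3 siRNA. Its change was 1.54 (SE 0.31, limma adjusted p = 0.0272), with both probes higher (1.42 and 1.66), and it was the most variable of the group on the earlier arrays. CALR, calreticulin, a calcium-binding chaperone, had values of -0.01, -0.02 and 0.87 with p65 siRNA and -0.02, 0.06 and 0.93 with RPS3 siRNA and rose by 0.90 (SE 0.12, adjusted p = 0.00832). It lay within 0.07 of control on all 4 earlier arrays. DNAJB9, a co-chaperone of the same compartment, changed by -0.45 without passing (adjusted p = 0.0937), with both 6 h arrays below all earlier ones. The others that rose were SLC7A5, a large amino acid transporter (0.77), and SHMT2, the mitochondrial serine hydroxymethyltransferase (0.59). Of 16 heat shock proteins of other compartments 1 rose (6.25%, against 8.34% of all features), HSPA1L (0.84), and the median was -0.02.

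The upstream promoters of HSP90B1 and CALR are shown because both hold the ER stress response element, the site through which chaperone genes respond to unfolded protein. The element was searched as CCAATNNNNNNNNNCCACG on both strands of the 250 bases before each gene's start (RefSeq, GRCh38.p14). It was found in 22 of 27303 promoters of that length (0.0806%) and in 7 of the 3222 tested genes with a promoter (0.217%). Among called genes it was found in 2 of 290 higher ones (0.69%) and in 1 of 65 lower ones (1.54%). KDELR1 and SLC7A5, which also rose, held no match, and neither did DNAJB9. A part of the element in the rises was not tested. In the lines that follow, which run 5′ to 3′ on the strand of the gene, capitals mark the matches, 2 in HSP90B1 (chr12:103930160-103930409, plus strand) and 1 in CALR (chr19:12938359-12938608, plus strand).
HSP90B1: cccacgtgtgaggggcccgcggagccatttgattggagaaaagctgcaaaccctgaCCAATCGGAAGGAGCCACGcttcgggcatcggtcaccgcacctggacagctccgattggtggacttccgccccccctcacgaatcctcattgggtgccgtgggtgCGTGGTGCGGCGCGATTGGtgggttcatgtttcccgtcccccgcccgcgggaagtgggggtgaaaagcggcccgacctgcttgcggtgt
CALR: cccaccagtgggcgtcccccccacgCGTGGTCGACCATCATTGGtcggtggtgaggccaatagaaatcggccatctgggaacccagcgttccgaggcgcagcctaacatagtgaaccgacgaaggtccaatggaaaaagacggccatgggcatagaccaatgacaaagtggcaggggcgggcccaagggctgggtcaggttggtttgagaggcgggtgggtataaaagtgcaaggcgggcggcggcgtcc
In HSP90B1 1 match lies on the strand of the gene, 194 to 176 bases before the start, and the other on the opposite strand, 89 to 71 bases before it, while in CALR the match lies on the opposite strand, 225 to 207 bases before the start.

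The NF-kB consensus, searched by its degenerate decamer on both strands, was about as common among the higher genes as among the genes tested. It was found in 12.7% of tested genes, 12.8% of higher and 16.9% of lower ones, against 9.57% of all 27303 promoters. The AP-1 site TGANTCA was found in 4.81%, 3.79% and 3.08% in the same order, against 6.6% of all promoters. The E-box CACGTG was found in 9.37%, 13.4% and 6.15%, against 6.49% of all. These shares describe letters in a window and not binding, and no test was made of them. TUFM, 1 of the 15 largest rises, holds an NF-kB match and is shown as an example, with the match in capitals (chr16:28846349-28846598, minus strand of the genome, written on the strand of the gene).
TUFM: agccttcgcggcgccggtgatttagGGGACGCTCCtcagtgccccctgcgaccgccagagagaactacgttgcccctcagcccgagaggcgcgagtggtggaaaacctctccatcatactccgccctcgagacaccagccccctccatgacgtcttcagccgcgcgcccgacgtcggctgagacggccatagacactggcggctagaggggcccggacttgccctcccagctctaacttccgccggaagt

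**Figure D4:**
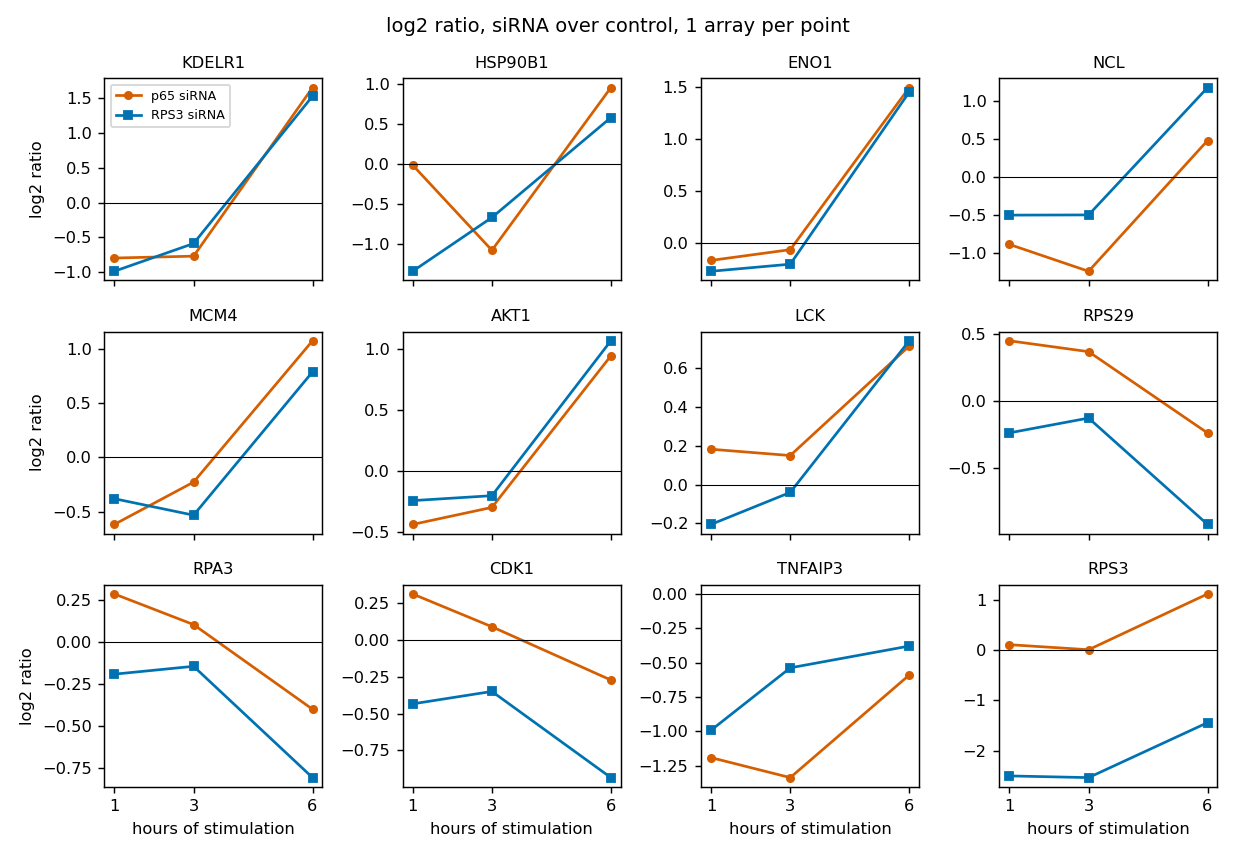
Log2 ratio of siRNA over control (y axis, a scale of its own in each panel) against hours of stimulation (x axis) for 12 genes, 1 array per point, with p65 siRNA in orange and RPS3 siRNA in blue. ENO1 and AKT1 are flat from 1 h to 3 h and higher at 6 h with both siRNAs, RPS29 and RPA3 are lower at 6 h, TNFAIP3 stays below 0, and RPS3 lies below 0 with RPS3 siRNA alone.

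Several genes of ribosome production rose, and several ribosomal protein genes fell. In the list of ribosome assembly and nucleolar genes 5 of 19 rose (26.3%, against 8.34% of all features) and none fell, with a median of 0.37. NCL, nucleolin, which acts in ribosomal RNA transcription and processing, had values of -0.89, -1.24 and 0.48 with p65 siRNA and -0.50, -0.50 and 1.17 with RPS3 siRNA. It rose by 1.61 (SE 0.15, limma adjusted p = 0.00332) from below control to above it with both siRNAs. SDAD1, which acts in export of the large subunit, rose by 1.34. NOP56, a core protein of the particles that methylate ribosomal RNA, rose by 1.01, and PES1, which acts in large subunit maturation, by 1.01. NOP2, a nucleolar RNA methyltransferase, rose by 0.76, and all 5 of its probes did so (0.43 to 1.06).

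Translation factors and tRNA synthetases had 5 of 29 genes higher (17.2%, against 8.34% of all features) and none lower (median 0.10, turning to -0.10 under quantile normalization). EIF3M (0.78) and EIF3B (0.53), subunits of the initiation factor that binds the small ribosomal subunit, EIF4H (0.84), which aids the helicase of initiation, and AARS1 (0.96), the alanyl-tRNA synthetase, rose. LARS1, the leucyl-tRNA synthetase, had values of -0.56, -0.77 and 0.59 with p65 siRNA and -0.26, -0.70 and 1.30 with RPS3 siRNA and rose by 1.52, although neither of its 2 probes had a value on all arrays.

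Among 24 ribosomal protein genes the order was reversed, with 5 lower (20.8%, against 1.93% of all features), 2 higher (8.33%, against 8.34%) and a median of -0.29. RPS3, which rose by 1.07 and passed, was not in this list. RPS29, read by 4 probes that changed by -0.59 to -0.77, had values of 0.45, 0.37 and -0.24 with p65 siRNA and -0.24, -0.13 and -0.92 with RPS3 siRNA. RPS20 had values of 0.46, 0.29 and -0.31 with p65 siRNA and 0.05, 0.07 and -0.65 with RPS3 siRNA. Both fell at 6 h with either siRNA, by 0.69 and 0.69 (limma adjusted p = 0.0196 and 0.0201), and for RPS29 the values with RPS3 siRNA lay below those with p65 siRNA at each time. RPS21 (-0.55), RPL27 (-0.53) and RPS25 (-0.52) also fell. RPL8 rose, with values of -0.45, -0.22 and 0.72 with p65 siRNA and -0.13, -0.21 and 0.79 with RPS3 siRNA and a change of 1.00, and so did RPS2 (0.60), whose 3 probes ran from -0.09 to 1.12. Ribosomal protein genes have many near-identical pseudogene copies, so a probe's reading of 1 member is uncertain. No ribosomal protein gene was lower within the 1 series of ID numbers that holds both 6 h arrays, or without the RPS3 siRNA array at 3 h, at the same threshold.

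Several replication genes were higher at 6 h than earlier. In the S phase list 8 of 44 rose (18.2%, against 8.34% of all features) and 1 fell (2.27%, against 1.93%), with a median of 0.10. MCM4, a subunit of the replicative helicase, had values of -0.62, -0.23 and 1.07 with p65 siRNA and -0.38, -0.53 and 0.79 with RPS3 siRNA and rose by 1.37 (SE 0.16, limma adjusted p = 0.00551), with its 3 probes at 0.52 to 2.35. The helicase subunits MCM7 (0.89) and MCM5 (0.76) rose from close to control or slightly below it. POLE3 (0.99) and POLE (0.52), subunits of DNA polymerase epsilon, CCNE1 (0.59), the cyclin of S phase entry, CHAF1A (0.55), a histone chaperone whose probes ran from -0.05 to 1.30, and the nuclease FEN1 (0.54) also rose. RPA3, the small subunit of the single-strand binding protein, had values of 0.29, 0.11 and -0.40 with p65 siRNA and -0.19, -0.14 and -0.81 with RPS3 siRNA and fell by 0.62, and its 4 probes all fell (-0.50 to -0.68). Without the RPS3 siRNA array at 3 h 3 genes of the list were higher, and without the RPS3 siRNA array at 1 h 4 were.

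The G2 and M phase list was mixed, with 6 of 57 higher (10.5%, near the 8.34% of all features), none lower, and a median of -0.01 whose sign turned in 11 of 18 alternative settings. BIRC5, survivin, which acts at the centromere in mitosis, had values of -0.27, -0.65 and 0.57 with p65 siRNA and -0.87, -0.64 and 0.26 with RPS3 siRNA and rose by 1.02 (limma adjusted p = 0.0123). The ubiquitin-conjugating enzyme UBE2S (0.89), the checkpoint protein MAD1L1 (0.72), the kinases PLK1 (0.69) and AURKB (0.61) and the microtubule protein GTSE1 (0.51) rose. The AURKB probes valued on all 6 arrays changed by 0.18, 0.02 and 0.65, so its mean also rests on probes blank on some arrays. CDK1, the kinase of mitotic entry, changed the other way by -0.51, with values of 0.31, 0.09 and -0.27 with p65 siRNA and -0.43, -0.35 and -0.94 with RPS3 siRNA, and its cyclin CCNB1 by -0.51, with values of 0.26, -0.01 and -0.35 with p65 siRNA and -0.51, -0.53 and -1.07 with RPS3 siRNA. Neither passed (adjusted p = 0.0535 and 0.0554), and at every time both had lower values with RPS3 siRNA than with siRNA to p65. Without the RPS3 siRNA array at 3 h 2 genes of the list were higher, and with the series of ID numbers as a covariate 13 were higher and 2 lower. None of 11 histone genes passed, against 10.3% of all features, a share at which few of 11 would pass (median -0.11, 9 of 11 below 0).

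Of 45 apoptosis regulators 3 were higher and 3 lower (6.67% each, against 8.34% and 1.93% of all features), with a median of -0.12. BAK1, a pore-forming killer of the mitochondrial membrane, rose by 0.91, with values of -0.05, -0.12 and 0.69 with p65 siRNA and -0.11, -0.04 and 0.96 with RPS3 siRNA. BOK, a relative of it, rose by 0.85, and BIRC5, counted above, is the third. PMAIP1, which encodes NOXA, a BH3-only protein, had values of 0.12, 0.02 and -0.45 with p65 siRNA and -0.15, -0.08 and -0.79 with RPS3 siRNA and fell by 0.60 (limma adjusted p = 0.0315), as did all 4 of its probes (-0.53 to -0.78). BNIP2 (-0.53) and PDCD10 (-0.57) also fell. No apoptosis gene was lower with arrays scaled to 1 spread, within the 1 series of ID numbers, or without the RPS3 siRNA array at 3 h or at 1 h. In the list of 22 p53 targets CDKN1A, the p21 inhibitor of cyclin-dependent kinases, rose by 0.75 and PMAIP1 fell, with a median of -0.04. That is 4.55% in each direction, against 8.34% higher and 1.93% lower among all features.

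Splicing factors and hnRNP proteins also split. Of 30, 6 rose (20%, against 8.34% of all features) and 3 fell (10%, against 1.93%), with a median of 0.15. After SRSF4, the rises were those of PRPF38B, a factor of spliceosome activation (1.13), and SNRPA, the A protein of the U1 particle (0.91). TRA2A, an exon enhancer binding protein (0.79), PTBP1, a repressor of exons (0.76), and RBM5 (0.74) also rose. The RBM5 probes valued on all 6 arrays changed by 0.83 and 0.47, and neither passed alone. SNRPA had values of -0.50, -0.38 and 0.50 with p65 siRNA and -0.59, -0.55 and 0.33 with RPS3 siRNA, with all 4 earlier arrays below control and both 6 h arrays above it. HNRNPK (-0.60), U2AF2, which recognises the polypyrimidine tract (-0.56), and HNRNPH1 (-0.55) fell, on average from above control to below it. The U2AF2 probe valued on all 6 arrays lay close to control earlier (-0.04 to 0.08) and changed by -0.39 without passing. The U2AF2 mean thus also rests on probes that are blank on some arrays. Under quantile normalization 5 genes of the list were higher and none lower, and within the 1 series of ID numbers 7 were higher and none lower.

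Of 18 genes of mitochondrial respiration 3 were higher (16.7%, against 8.34% of all features) and 2 lower (11.1%, against 1.93%), with a median of -0.08. UQCRC2, a core protein of complex III, had values of 0.23, -0.15 and 1.19 with p65 siRNA and 0.24, 0.24 and 1.74 with RPS3 siRNA and rose by 1.32 (SE 0.16, limma adjusted p = 0.00635). COX15 (0.85), which makes the haem of complex IV, and SDHA (0.53), the flavoprotein of complex II, rose. COX7C (-0.56), a small subunit of complex IV, and ATP5PF (-0.60), a coupling factor of the ATP synthase, fell, but no gene of the list was lower under quantile normalization, with arrays scaled to 1 spread, without the siRNA covariate, within the 1 series of ID numbers, or without the p65 siRNA array at 1 h, the RPS3 siRNA array at 3 h or that at 1 h. Of 13 genes of cholesterol and fatty acid synthesis 1 rose (7.69%, against 8.34% of all features), while the median of the list was -0.11. The gene was FADS1, a fatty acid desaturase with a change of 1.25. Its values were 0.08, -0.36 and 1.19 with p65 siRNA and -0.10, 0.12 and 1.18 with RPS3 siRNA. Of 46 interferon-stimulated genes 1 rose (2.17%, against 8.34% of all features), ISG15, a ubiquitin-like modifier (0.58). GBP1, a guanylate-binding protein, changed by -0.51 without passing (limma adjusted p = 0.0827). None of 16 proteasome and ubiquitin conjugation genes (median -0.05) and none of 5 genes of the RNA interference machinery (median -0.04) passed. Among all features 10.3% did. Leaving out either 6 h array left at most 1 gene passing in any of the 26 lists.

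**Figure D5:**
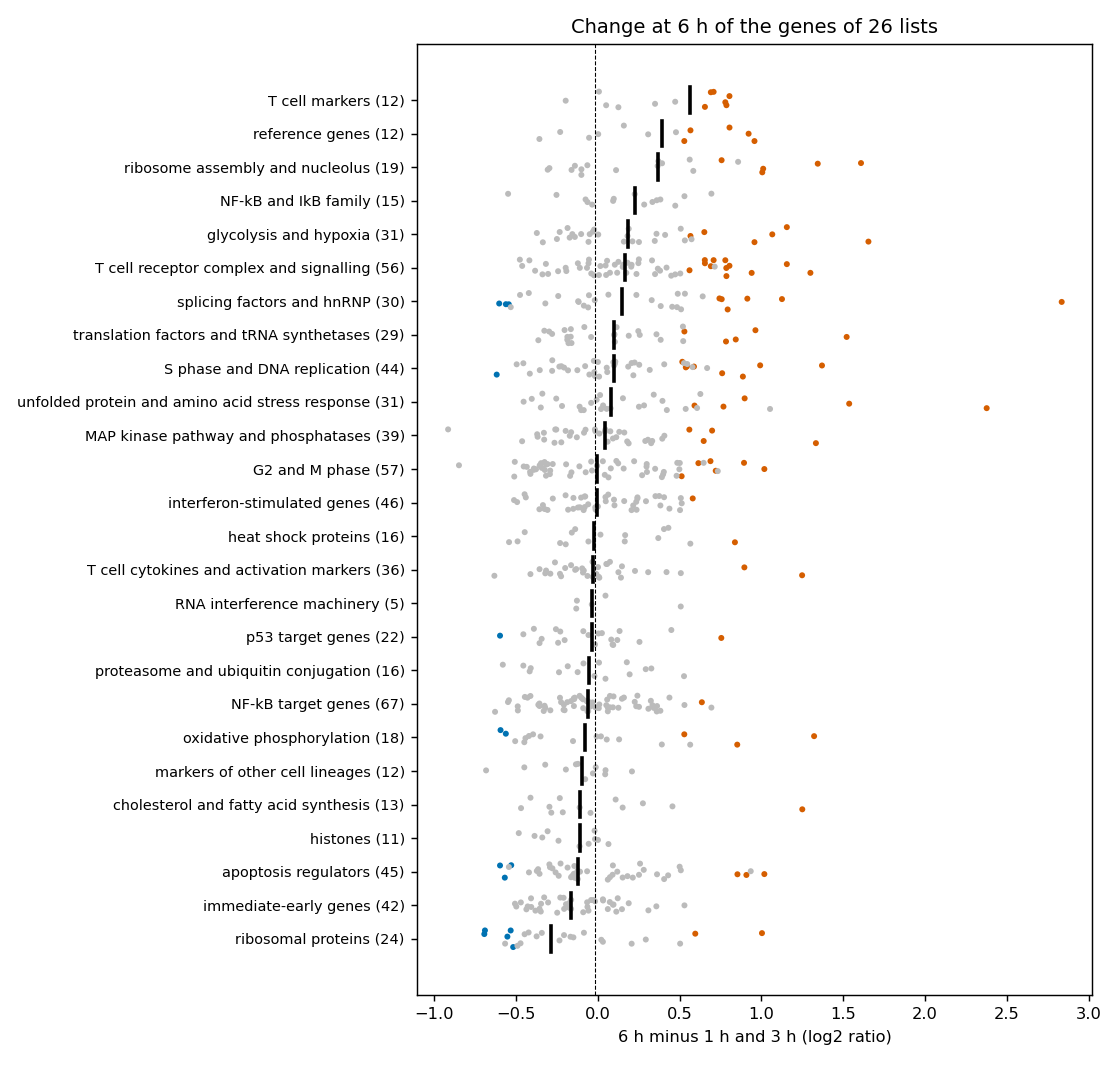
Change at 6 h (x axis, log2 ratio) of each tested gene of 26 lists, with the number tested in brackets, in order of the list median (black bars); orange points passed as higher and blue as lower, and the dashed line is the median of all 7267 features. T cell markers, reference genes and ribosome assembly genes have the highest medians (0.56, 0.39 and 0.37) and ribosomal proteins the lowest (-0.29).

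The late change was also compared between the siRNAs. No feature passed for a difference in the 6 h change (limma, lowest adjusted p = 0.105), and 97 features (1.33%) had an unadjusted p under 0.05. About 363 of the 7267 features would have such a p by chance, so the genes below are descriptions only. Among the named features with such a p, 17 changed in opposite directions with the 2 siRNAs. PCMTD1 had values of -0.24, -0.58 and 0.00 with p65 siRNA and 0.23, 0.21 and -1.09 with RPS3 siRNA. MPEG1, which encodes perforin-2, had values of -0.17, 0.48 and 1.42 with p65 siRNA and 1.40, -0.19 and -0.89 with RPS3 siRNA, but neither of its 2 probes was valued on all arrays. PCMTD1 was lower at 6 h with RPS3 siRNA alone, whereas MPEG1 rose and fell on single arrays at other times as well. FAHD2A, ABCA5, a lipid transporter, and EHMT1, a histone methyltransferase, were likewise lower at 6 h with RPS3 siRNA (-0.59, -1.20 and -0.61) and not with p65 siRNA (0.60, -0.36 and -0.05). BEND4 and NBPF3 showed the reverse order, with 6 h values of 1.08 and 0.81 with RPS3 siRNA and -0.03 and -0.08 with p65 siRNA. The 2 probes of BEND4 valued on all arrays read only 0.09 and 0.22 at 6 h with RPS3 siRNA, so its mean rests there on probes that are blank on other arrays. Each of these values is 1 array, and none passed after adjustment.

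Unnamed probes held changes as large as the named ones. Probe 29738_1 rose by 2.83, with values of -0.64, -0.70 and 2.10 with p65 siRNA and -0.69, -0.45 and 2.33 with RPS3 siRNA, and had the lowest adjusted p of all features (limma, 0.000578). The probes numbered beside it, 29737_1 and 29739_1, rose by 2.46 and 2.23, so 3 adjacent probe numbers moved together. Probe 31090_1 rose by 2.77, and its neighbour 31091_1, which reads LSM12, by 1.83, while the next 2 on the other side changed by 0.12 and -0.15. Probe 35023_1 rose mostly with p65 siRNA, where its 6 h value was 4.11 against 0.78 with RPS3 siRNA, and was chosen after its values were seen. The largest falls were those of probes 24012_1 (-0.97) and 31028_1 (-0.94). Between probes without a shared gene name, changes at probe numbers 1 and 2 apart correlated at r = 0.149 (7850 pairs) and 0.147. At 5, 10, 20 and 50 apart r was 0.0504, 0.0825, 0.00444 and 0.0604, which is no steady decline. Pairs with an unnamed probe may read 1 gene. Changes of the first 2 complete probes of 1 gene correlated at 0.452 (1917 genes). These are descriptions across probes of the same arrays. Of 192 passing genes with 2 or more complete probes, 177 had all of them in the same direction. These genes were called on a mean that includes the same probes, which favours such agreement, and nothing is read from it.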

How the data were processed

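Log2 ratios per probe were used as deposited in the authors' value table; the image analysis, background correction, within-array normalization and log base are not given in the sources used here, and Cy5 over Cy3 was read from the labels' dyes. Each array was centred on its median. Probes (15246 in the table, 10169 with 1 symbol of the platform annotation) were averaged per symbol over those with a value, and the 3932 genes and 3335 unnamed probes valued on every array were tested. The fit used limma 3.58.1 under R 4.3.3, with factors for 6 h and siRNA and 3 residual degrees of freedom. Benjamini-Hochberg adjustment ran over 7267 features. A run on simulated data gave each feature independent noise on each array, unlike these correlated arrays, so no error rate is read from it. Precision is limited by the number of arrays. The scanner's spot intensities were not used here. Genes named are the 15 largest passing rises and falls, the 2 lowest p-values per direction in each of 26 lists, the 5 highest and lowest differences between siRNAs, RPS3 and RELA; further passing list members were added after their values were seen. The comparison, the lists and the motifs were chosen with earlier results of these data known. Alternatives covered centring, scaling, probe averaging, filters, covariates, ID series, time coding and leaving out each array.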

Additional observations from a re-analysis of the deposited data

Results flagged for a closer look

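Among the 4 earlier arrays, 1 array stood apart from the other 3 for 7 of 130 genes named here, by a gap over range above Dixon's critical value; chance gives about 1 in 20 genes, or 6.5 of 130. ZGRF1 was at -1.12 with p65 siRNA at 3 h against -0.19 to -0.23 on the others, and UQCRC2 was at -0.15 there against 0.23 to 0.24. HESX1 was at 0.69 with RPS3 siRNA at 1 h against 0.23 to 0.30, a direction opposite to its fall at 6 h. CD247 was at 0.042 with p65 siRNA at 1 h against -0.24 to -0.26. With RPS3 siRNA at 3 h, COXFA4 was at 0.003 against 0.33 to 0.35, CALR was at 0.065 against -0.014 to -0.021, and TRA2A was at -0.12 against -0.46 to -0.51. No gene differed between the siRNAs in its 6 h change after adjustment.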

How the results depend on the processing

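The 746 calls became 732 without centring, 512 with arrays scaled to 1 median absolute deviation, 462 after quantile normalization and 1306 of 10721 when each probe was tested alone. They became 605 when 3 earlier arrays sufficed, 686 without the siRNA covariate, 1487 with the ID series as covariate (980 higher and 507 lower), 741 within 1 ID series, 726 with robust variance and 855 with the median of a gene's probes, the last chosen after seeing the data. Against 3 h alone 55 passed, against 1 h alone 75, and 0 as a slope per hour (limma), where the unadjusted count was 1700. Leaving out 1 array gave 12 to 752. Among the calls, 443 were shared under quantile normalization and 492 under scaling, none with another sign. Calls for a difference between the siRNAs (0) became 2 after quantile normalization, 1 after scaling and 2 by single probes, and calls from 1 h to 3 h became 0 to 12 leaving out 1 array.

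Signs turned for some uncalled or averaged genes. With scaling RELA gave 0.056 and MPEG1 0.012; against 3 h alone RELA gave 0.013 and MPEG1 0.12. Single probes gave -0.012 for IL2RG, -0.50 and -0.40 for ACTB, -0.093 for RPS2, -0.051 for CHAF1A, -0.45 for MAPKAPK2, and -0.21 and -0.088 for BEND4, which gave -0.15 from complete probes by mean or median. FAHD2A gave -0.15 with the ID series as covariate or within 1 series. Leaving out 1 array, FAHD2A ranged from -0.59 to 0.77, MPEG1 -1.49 to 1.26, PCMTD1 -1.31 to 0.40, ABCA5 -1.22 to 0.001, EHMT1 -0.98 to 0.23, BEND4 -0.10 to 0.90 and NBPF3 -0.14 to 0.65. The cause of these shifts was not tested. The siRNA covariate is the only pairing the labels give, since replicate numbers only name arrays.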
